A study of Homo sapiens with 4 samples.

Results

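Interleukins and colony-stimulating factors are secreted signalling proteins, and 10 of their genes were examined in TGF-β1-treated ovarian cancer cells: *IL6*, *IL11*, *LIF*, *IL1A*, *IL1B*, *IL18*, *IL32*, *CSF1*, *CSF2* and *CSF3*. The list was drawn up with earlier results of these data known, and all 10 were found by symbol among the 33694 genes of the count matrices. OVCA420, a human epithelial ovarian cancer cell line, was left untreated (Ctrl) or given 10 ng/mL TGF-β1, a cytokine used to induce epithelial-mesenchymal transition (EMT), for 1, 3 or 7 days, and all cultures were collected together. Each time point is 1 droplet-based scRNA-seq library of cultured cells from 1 line, so that the time point and the library cannot be told apart, and no test between time points was possible. Only part of each library was analysed here, namely the first cells in barcode order (from Ctrl to 7-day, 941 of 3372, 945 of 2601, 712 of 2253 and 572 of 2484), of which 933, 937, 705 and 569 were retained because they had more than 200 genes detected and at most 20% mitochondrial UMIs.

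IL-6, IL-11 and *LIF* belong to a family of cytokines that signal through the shared receptor subunit gp130, encoded by *IL6ST*, and through JAK kinases and *STAT3*. IL-1α, IL-1β and IL-18 belong to the IL-1 family. IL-1β and IL-18 are made as precursors that caspase-1 cleaves within inflammasomes, while IL-1α is active without that step. The colony-stimulating factors M-CSF (*CSF1*), GM-CSF (*CSF2*) and G-CSF (*CSF3*) act on macrophages, granulocytes and their precursors. Several of these genes are known targets of the transcription factors NF-kB and AP-1, and *IL11* is a known target of TGF-β signalling in epithelial cancers.

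The genes lie on 9 chromosomes of GRCh38 (GENCODE release 44), and *IL1A* (chr2:112773925-112784493) and *IL1B* (chr2:112829751-112836816) are neighbours on the minus strand of chromosome 2. *IL6* lies at chr7:22725884-22732002 on the plus strand, *IL11* at chr19:55364382-55370463 on the minus strand, *CSF2* at chr5:132073789-132076170 on the plus strand and *IL32* at chr16:3065297-3082192 on the plus strand. *LIF* (chr22:30240453-30246759) and *IL18* (chr11:112143253-112164096) lie on the minus strand, and *CSF1* (chr1:109910242-109930992) and *CSF3* (chr17:40015361-40017813) on the plus strand. The promoter sequences of 4 members are shown because their windows hold a match to an NF-kB or AP-1 motif outside annotated exons. *IL32* is not printed, since most of its matches lie in annotated exons. The sequences are taken from RefSeq (GRCh38.p14) and hold up to 250 bases before a transcription start, cut where an annotated exon begins, in the direction of transcription. Capitals mark matches on either strand to the NF-kB consensus GGGNNNNNCC and the AP-1 element TGANTCA.
IL11: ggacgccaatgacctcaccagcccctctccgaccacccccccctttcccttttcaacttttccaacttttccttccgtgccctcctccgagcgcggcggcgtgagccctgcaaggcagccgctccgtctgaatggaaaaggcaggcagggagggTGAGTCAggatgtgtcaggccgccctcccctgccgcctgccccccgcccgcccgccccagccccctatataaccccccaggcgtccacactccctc
IL1A: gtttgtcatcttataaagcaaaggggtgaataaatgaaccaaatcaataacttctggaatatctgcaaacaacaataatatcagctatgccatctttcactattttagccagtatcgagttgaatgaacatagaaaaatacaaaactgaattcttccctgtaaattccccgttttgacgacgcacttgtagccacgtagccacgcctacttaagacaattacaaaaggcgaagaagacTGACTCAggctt
IL6: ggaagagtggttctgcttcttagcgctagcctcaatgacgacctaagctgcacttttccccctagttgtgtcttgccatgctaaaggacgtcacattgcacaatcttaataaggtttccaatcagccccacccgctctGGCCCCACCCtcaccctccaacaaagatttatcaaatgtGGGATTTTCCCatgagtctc
CSF2: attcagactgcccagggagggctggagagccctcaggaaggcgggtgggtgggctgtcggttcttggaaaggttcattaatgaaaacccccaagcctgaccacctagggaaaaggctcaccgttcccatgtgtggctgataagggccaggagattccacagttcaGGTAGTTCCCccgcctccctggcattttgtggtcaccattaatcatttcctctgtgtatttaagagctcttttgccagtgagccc
These sequences are chr19:55370464-55370713 on the minus strand for *IL11*, chr2:112784494-112784743 on the minus strand for *IL1A*, chr7:22726950-22727146 on the plus strand for *IL6* and chr5:132073539-132073788 on the plus strand for *CSF2*.

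The *IL11* sequence held the AP-1 element TGAGTCA from 96 to 90 bases before the start. The *IL1A* sequence shown held TGACTCA from 12 to 6 bases before its start. Before another *IL1A* start, the window held TGACTCA from 105 to 99 bases and TGAGTCA from 55 to 49 bases upstream, the latter not printed. The AP-1 element was present in 6.57% of all 35116 RefSeq windows of the same length, so that it is uncommon. The *IL6* window held the sequence GGGATTTTCC from 73 to 64 bases before the start, with an overlapping match on the other strand, and a further match from 112 to 103 bases before it. *CSF2* held 1 NF-kB match, from 85 to 76 bases before the start. The NF-kB consensus is loose and was present in 54.4% of all windows, as was the SMAD element CAGAC in 38.0%. Of the 6 members with a window, *IL1B* held none of the 3 motifs, *IL32* held 4 NF-kB matches before one of its starts and 1 before another, and a SMAD element was found for *IL11*, *IL6*, *CSF2* and *IL32*. A match is a description of the letters, and no match says only that these letters are not in the window.

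Levels are given as counts of unique molecular identifiers (UMIs) of a gene scaled to the library total (CPM, UMIs per 1000000 UMIs) after summing the retained cells. The 95% intervals are exact Poisson intervals and reflect counting error alone. A lower CPM can mean fewer cells with the RNA or less RNA in each cell, which the sum does not tell apart. The retained cells held 25382817 to 32949874 UMIs per library, and the median depth per cell was 30270, 32393, 43553 and 43382 UMIs from Ctrl to 7-day. The 9 epithelial marker genes were all detected in each library, at 4119 to 5650 CPM in sum, while *MUC16* was at most 2.97 CPM. The sum does not describe each marker. At 7-day *KRT7* was at least 2-fold above Ctrl (1 of 9, against 14.7% of all genes tested). *KRT19*, *ELF3* and *MUC16* were at least 2-fold below Ctrl (3 of 9, against 11.5%). Among 11 leukocyte markers, *PTPRC* had 2 UMIs in Ctrl and 0 in each treated library, whereas the summed level of the list was 5.07, 6.13, 9.02 and 14.6 CPM from Ctrl to 7-day, most of it from *CD79A* and *CD68*. *PMEPA1*, a known TGF-β1 response gene, was at least 2-fold above Ctrl at each time point. Between 1 and 7 cell barcodes were shared by each pair of libraries, and every ratio to Ctrl of the 10 genes moved by less than its counting interval when those cells were left out.

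The cytokine genes were low or moderate in untreated cells and mostly higher with TGF-β1. A gene was counted as changed if its CPM differed from Ctrl by at least 2-fold, among genes with at least 20 UMIs over the 4 libraries. This left 9 members, since *CSF3* had 12 UMIs in all. A gene with fewer than 20 Ctrl UMIs could pass this minimum only through the treated libraries. That holds for *IL6*, *IL11*, *LIF* and *CSF2* and for several genes of the lists below, so that their calls as higher were partly set by the minimum. At 1-day, 5 of 9 members were at least 2-fold higher (*IL11*, *LIF*, *IL18*, *IL32* and *CSF2*), against 11.9% of the 15924 genes tested. Another 2 of 9 were at least 2-fold lower (*IL1B* and *CSF1*), against 12.9% of all genes. At 3-day, 7 of 9 were higher (against 12.7% of all genes), with *IL6* and *IL1A* added, and 1 of 9, *IL1B*, was lower (against 12.5%). At 7-day, 8 of 9 were higher (against 14.7%) and 0 of 9 were lower (against 11.5%), with *CSF1* the one member under 2-fold. The median log2 ratio to Ctrl of the members was 2.33, 3.74 and 4.48 after 1, 3 and 7 days, while that of all genes was -0.08, -0.03 and 0.06. Because the list was made with earlier results known, these counts describe the members and are not set against an unselected list. From 1-day to 3-day, 5 of 9 were at least 2-fold higher (against 7.44% of all genes) and 0 were lower (against 7.81%). From 3-day to 7-day, 4 of 9 were higher (against 5.73%), namely *IL6*, *IL1A*, *IL1B* and *CSF2*, and 0 were lower (against 3.35%).

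**Figure D1:**
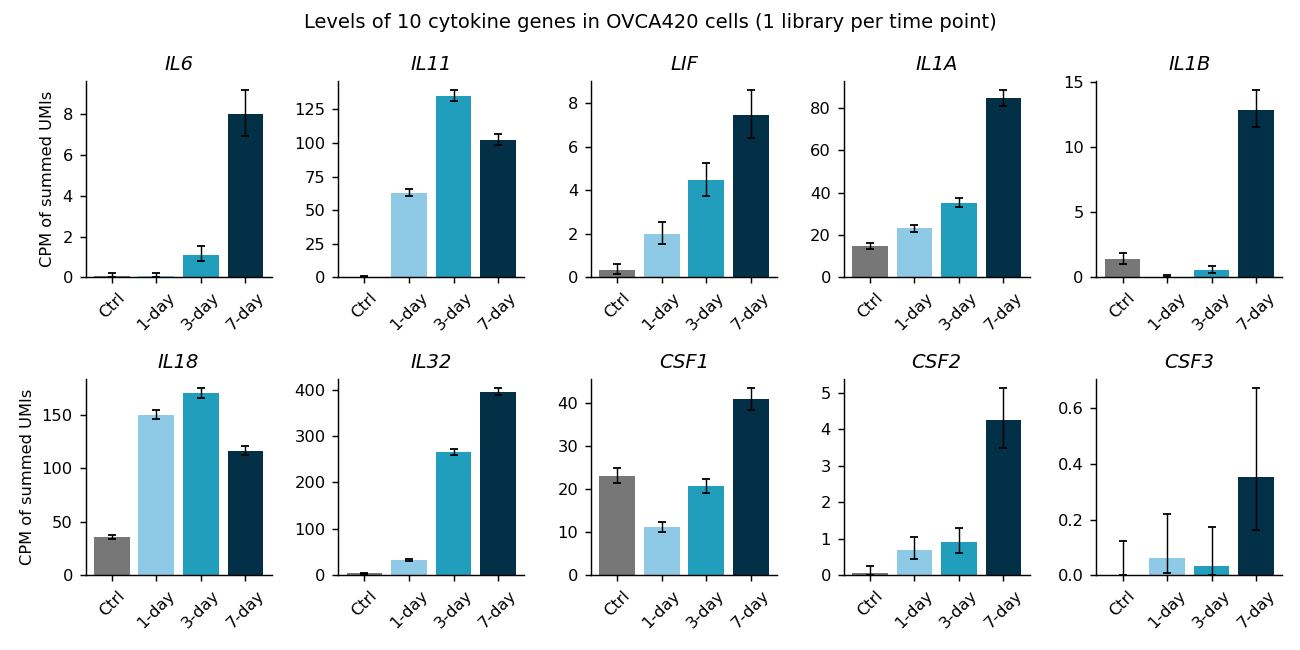
Level of each of the 10 genes in the 4 libraries, in CPM of summed UMIs on a linear axis from 0 with a separate scale for each gene; bars are single libraries and error bars are exact Poisson 95% intervals. *IL6*, *LIF*, *IL1A*, *IL1B*, *IL32*, *CSF1*, *CSF2* and *CSF3* were highest at 7-day, whereas *IL11* and *IL18* were highest at 3-day.

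*IL11*, a gp130 cytokine, had the largest ratio to Ctrl of the 10 genes at each of the 3 time points when all retained cells were used. The 7-day interval of *IL6* spans the value of *IL11*, and *IL32* had the larger 7-day ratio among the later barcodes of those analysed (log2 7.03 against 6.71). In cells with no *TOP2A* and no *MKI67* UMI, *IL32* was also above *IL11*. Its log2 ratio was 6.79 against 6.51 after 3 days and 7.52 against 5.63 after 7 days. The Ctrl cells of this kind, 60 in all, held only 5 *IL32* and 2 *IL11* UMIs, so that this order rests on few counts. Untreated cells held 16 *IL11* UMIs (0.533 CPM), and the level in the 1-day, 3-day and 7-day libraries was 63.1, 135 and 103 CPM. The 4 counting intervals did not overlap, and the order was Ctrl, 1-day, 7-day and 3-day. Against Ctrl this is 118-fold after 1 day (log2 6.89, interval 6.18 to 7.70), 253-fold after 3 days (log2 7.98, 7.28 to 8.79) and 192-fold after 7 days (log2 7.59, 6.89 to 8.40). From 3-day to 7-day the log2 ratio was -0.40 (-0.47 to -0.33), so that the late decline was small beside the early gain. A UMI of *IL11* was found in 1.71% of untreated cells and in 55.3%, 82.4% and 80.5% of the treated cells.

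*IL6* was almost absent until the third day of TGF-β1. From Ctrl to 7-day the libraries held 2, 2, 36 and 203 *IL6* UMIs, which is 0.0667, 0.0607, 1.12 and 8.0 CPM. No ratio is given at 1-day, where both counts were under the floor of 3 UMIs, and the ratio to Ctrl was log2 4.07 (2.11 to 7.17) at 3-day and 6.91 (5.03 to 9.96) at 7-day. These intervals are wide because the Ctrl count was 2. The change from 3-day to 7-day rests on more counts and was 7.14-fold (log2 2.84, 2.32 to 3.39). The gene *STEAP1B* overlaps *IL6* on the opposite strand in GENCODE, and its UMIs numbered 5, 6, 62 and 177 in the same order. At 7-day, 27 cells held a UMI of both, where 23.7 would be expected if they occurred independently, and the part of *STEAP1B* in the *IL6* counts was not tested.

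*LIF*, the third gp130 cytokine, was higher at each later time point. Its 10 UMIs in Ctrl gave 0.333 CPM, followed by 2.00, 4.45 and 7.45 CPM in the treated libraries, and no neighbouring intervals overlapped. As log2 ratios to Ctrl these are 2.59 (1.62 to 3.71), 3.74 (2.82 to 4.83) and 4.48 (3.57 to 5.56). *IL11* and *LIF* thus differed in course between 3-day and 7-day, when *LIF* was 1.67-fold higher and *IL11* was lower.

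**Figure D2:**
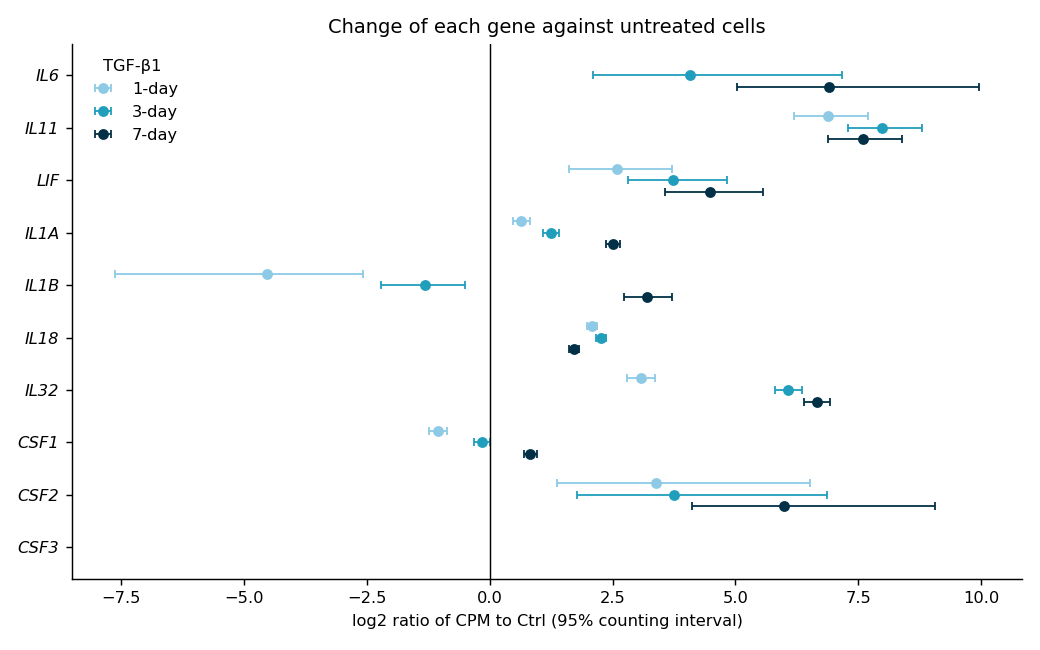
Log2 ratio of the CPM of each gene to Ctrl at 1-day, 3-day and 7-day; points are single libraries against the Ctrl library and bars are 95% counting intervals. *IL1B* and *CSF1* lie left of 0 at 1-day and right of it at 7-day; no point is drawn for *CSF3* or for *IL6* at 1-day, where Ctrl had no UMI or both libraries had at most 3.

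The 3 IL-1 family genes took 3 different courses. *IL1A*, which encodes IL-1α, was at 14.8, 23.2, 35.1 and 84.5 CPM from Ctrl to 7-day, and its intervals were separate at every step. Its log2 ratio to Ctrl was 0.64 (0.47 to 0.82), 1.24 (1.08 to 1.40) and 2.51 (2.36 to 2.66), so that it passed 2-fold only from 3-day on. The share of cells with an *IL1A* UMI was 27.3%, 47.8%, 64.5% and 86.8%.

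*IL1B*, which encodes IL-1β, was lower in the first days and higher at the end. From Ctrl to 7-day there were 42, 2, 18 and 327 *IL1B* UMIs, or 1.40, 0.0607, 0.560 and 12.9 CPM. The 4 intervals were separate, in the order 1-day, 3-day, Ctrl and 7-day. Against Ctrl, the log2 ratio was -4.53 (-7.62 to -2.59) after 1 day, -1.32 (-2.21 to -0.49) after 3 days and 3.20 (2.74 to 3.70) after 7 days. In Ctrl, 24 cells held all of the *IL1B* UMIs, and the 10 cells with the most held 66.7% of them. At 1-day 2 cells and at 3-day 11 cells held one, so that both early ratios rest on few cells. Without the 10 cells with most UMIs in each library, the 7-day log2 ratio was 4.43, above its interval. The 1-day value was then -2.36, above its interval, with 3 counts in place of 0. The 3-day value was -3.90, below its interval, so that the sizes of the early ratios are uncertain.

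*IL18* was the IL-1 family gene with the widest presence in untreated cells, where 54.4% of cells held a UMI. From Ctrl to 7-day its level was 35.5, 150, 171 and 116 CPM, with no overlap of intervals. Relative to Ctrl these are log2 ratios of 2.08 (1.98 to 2.18), 2.26 (2.17 to 2.36) and 1.71 (1.61 to 1.81). Most of the gain was thus present after 1 day, and the 7-day level was 0.682 of that at 3-day. The share of positive cells stayed between 94.98% and 96.0% in the treated libraries.

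*IL32*, an intracellular and secreted cytokine outside the other families, was higher at each later time point, with about equal log2 steps in the first day and from then to the third. Ctrl held 118 *IL32* UMIs (3.93 CPM), and the treated libraries were at 33.2, 265 and 395 CPM in order of time, with separate intervals. These levels are log2 ratios to Ctrl of 3.08 (2.80 to 3.37), 6.08 (5.81 to 6.35) and 6.65 (6.39 to 6.93). Between 1-day and 3-day it was 7.98-fold higher (log2 3.00, 2.91 to 3.09). Positive cells made up 5.57%, 32.2%, 88.7% and 97.9% of the 4 libraries.

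Among the colony-stimulating factors, *CSF1* was first lower and then higher. Its level was 23.0, 11.1, 20.6 and 40.8 CPM from Ctrl to 7-day. The intervals of Ctrl (21.3 to 24.8 CPM) and 3-day (19.1 to 22.3 CPM) overlapped, and the others were separate. Its log2 ratio to Ctrl was -1.04 (-1.23 to -0.86), -0.16 (-0.31 to 0.00) and 0.83 (0.69 to 0.97), and at 1-day it lay so close to 2-fold that the gene was no longer counted as lower with median-of-ratios scaling. From 1-day to 7-day *CSF1* therefore had a course like that of *IL1B*, with a minimum at 1-day and a maximum at 7-day, but over a smaller range.

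*CSF2*, which encodes GM-CSF, had 2, 23, 29 and 108 UMIs from Ctrl to 7-day, or 0.0667, 0.698, 0.902 and 4.25 CPM. The intervals at 1-day and 3-day overlapped, and that at 7-day stood above the rest. The log2 ratios were 3.39 (1.37 to 6.52), 3.76 (1.78 to 6.87) and 6.00 (4.11 to 9.06). In thinned cells the 3-day value was 1.32, where Ctrl had no UMI and 3 counts stood in its place. At 1-day only 11 cells held a *CSF2* UMI and 10 of them held 95.7% of the UMIs. *CSF3*, which encodes G-CSF, had 0, 2, 1 and 9 UMIs, which is close to the limit of detection. Its absence from 933 Ctrl cells allows a level of up to 0.123 CPM by the Poisson interval, and 3 counts would be 0.100 CPM. At 7-day *CSF3* was at 0.355 CPM (0.162 to 0.673). Set against 3 counts in Ctrl this is 3.55-fold, which is not a lower limit, and the exact interval of the log2 ratio starts at 1.22. The interval at 7-day overlapped those at 1-day and 3-day.

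**Figure D3:**
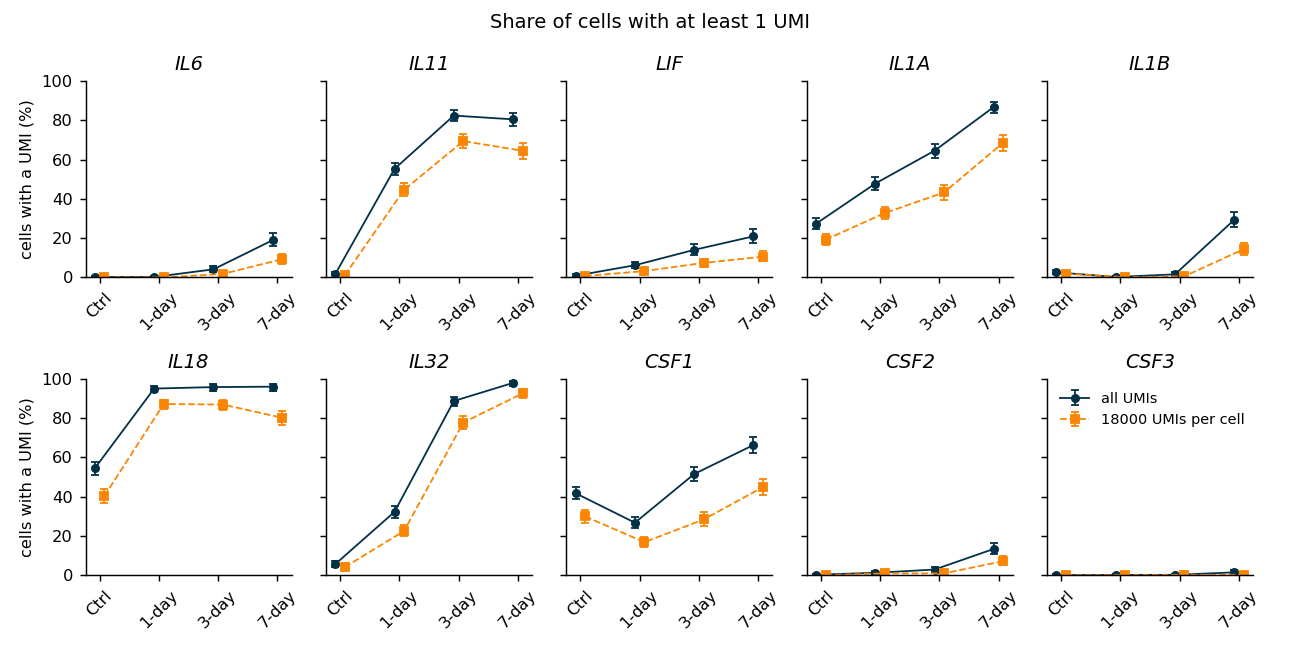
Share of cells with at least 1 UMI of each gene in the 4 libraries, from all UMIs (circles) and after each cell was thinned to 18000 UMIs (squares), with exact binomial 95% intervals. *IL18*, *IL32*, *IL1A*, *IL11* and *CSF1* were found in most cells at 7-day when all UMIs were used, while *IL6*, *IL1B*, *LIF* and *CSF2* were found in a minority.

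The share of positive cells depends on depth, which was higher at 3-day and 7-day. Each cell was therefore also thinned to 18000 UMIs, which left out 89, 37, 28 and 20 shallower cells from Ctrl to 7-day. At equal depth the share of IL6-positive cells was 0.118%, 0%, 1.77% and 9.29%, and the 0% of 900 cells at 1-day allows up to 0.409%. *IL1B* was found in 1.90%, 0.111%, 0.591% and 14.4% of cells, *LIF* in 0.711%, 3.22%, 7.39% and 10.6%, and *CSF2* in 0% (of 844 cells, which allows up to 0.436%), 0.889%, 0.886% and 7.10%. These genes stayed minority genes at every time point. At 7-day they are found in 7.10% to 14.4% of thinned cells.

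*IL1A* was found in 19.2%, 32.8%, 43.3% and 68.7% of thinned cells, and *IL32* in 4.03%, 22.4%, 77.7% and 92.5%. The order of the time points was thus the same as without thinning for both. For *IL18* the thinned shares were 40.3%, 87.1%, 86.9% and 80.1%, so that the equal shares of the 3 treated libraries at full depth were not equal at matched depth. *CSF1* was found in 29.9%, 16.8%, 28.4% and 44.8%, and its 3-day share, above Ctrl at full depth (51.5% against 41.7%), overlapped that of Ctrl after thinning, as the CPM did. *IL11* was found in 1.07%, 44.6%, 69.4% and 64.5%. No cell type that lacks these genes is present in the libraries, so the share that free RNA in the droplets would give was not measured. The lowest share above 0 at full depth was 0.107%, for *CSF3* at 1-day.

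**Figure D4:**
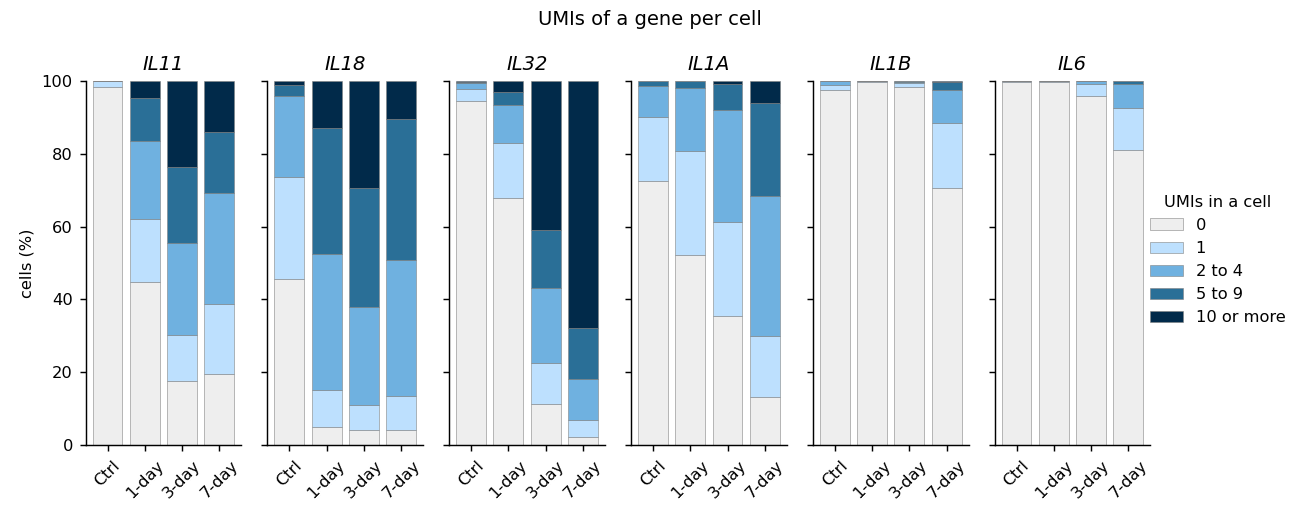
Share of cells by the number of UMIs of a gene they held (0, 1, 2 to 4, 5 to 9, 10 or more) in each library, for 6 members; each bar adds up to 100% of the retained cells. Cells with 10 or more *IL32* UMIs made up 0.214%, 2.88%, 40.9% and 67.8% from Ctrl to 7-day, whereas most cells held no *IL6* or *IL1B* UMI at any time point.

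The genes also differed in how evenly the cells carried them. *IL32* at 1-day was concentrated, since the 10 cells with the most UMIs (the top 1%) held 22.7% of all, and 67.8% of cells held none. By 7-day the top 1% held 4.14% and the median cell had 15 UMIs. If the *IL32* UMIs at 1-day had been spread over cells by depth alone, 66.5% of cells would have held one, against 32.2% observed. *IL11* showed the same kind of gap at 1-day, with 55.3% positive cells against 86.1% for an even spread, and a maximum of 24 UMIs in a cell. *IL18* at 1-day came closer to an even spread, with 94.98% against 98.4%.

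The minority genes also had a gap at 7-day. *IL6* was found in 19.0% of cells against 29.5% for an even spread, *IL1B* in 29.3% against 42.7%, *LIF* in 20.9% against 27.8% and *CSF2* in 13.4% against 17.1%. The most *IL6* UMIs in a cell was 9, and the most *IL1B* UMIs was 12. Expression was therefore uneven between cells of the same library.

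Cells carried more of the 10 genes with time. At equal depth the median number of members found in a cell was 1, 2, 3 and 4 from Ctrl to 7-day, and the share of cells with 5 or more was 0.355%, 0.889%, 11.96% and 30.6%. In the 7-day library, pairs of members were mostly found in the same cells about as often as their separate shares would give. There, *IL6* and *IL11* were found together in 36 thinned cells where 32.9 would be expected, and *IL1A* and *IL1B* in 56 where 54.2 would be. In Ctrl, *IL1A* was found with *IL1B* in 12 thinned cells against 3.07 expected, and with *IL32* in 15 against 6.53. *IL18* and *CSF1* were found together in 99 Ctrl cells against 102 expected. The pair *LIF* and *IL11* was found in 49 cells against 37.4 expected at 7-day and in 44 against 34.7 at 3-day, with a Pearson r of 0.15 at both. *LIF* and *CSF2* were found in 9 cells against 4.12 at 7-day. A higher r than for *LIF* and *IL11* was seen for *IL1A* and *IL32* at 3-day (0.23, 250 cells against 228 expected). The same held for *IL1A* and *CSF1* at 7-day (0.16). It also held for *IL32* and *CSF1* at 1-day (0.17, 50 cells against 33.9 expected) and at 3-day (0.18, 172 against 149). In Ctrl it held for *IL32* with *IL1A* and with *IL18* (both 0.16). *IL11* and *IL18* had the lowest r at 7-day, -0.15, across the 549 thinned cells, which share 1 library. These correlations are weak in sparse counts, and no more than the values is taken from them.

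Cells with a UMI of the proliferation genes *TOP2A* or *MKI67* made up 93.6%, 49.5%, 76.9% and 86.6% of cells from Ctrl to 7-day, and their median depth was higher than that of the other cells in each library. *IL11* was higher in such cells in each treated library, at 78.0 against 47.0 CPM at 1-day, 140 against 116 at 3-day and 108 against 62.9 at 7-day. *IL32* was lower in them, at 30.2 against 36.5 CPM, 244 against 351 and 371 against 584. *IL6* was at 7.26 CPM in such cells at 7-day and 13.6 CPM in the others, and *IL1A* was at 80.7 against 113 CPM. The counting intervals of these ratios did not include a ratio of 1, but they treat each UMI as independent. The UMIs were clustered in cells, with a variance over mean per cell of 10.8 for *IL32* at 1-day and 8.69 for *IL11* at 3-day. The intervals are therefore too narrow for a comparison of cells, and these differences were not tested. The part of cell cycle shares in the differences between libraries was not tested beyond this split. Within the cells that held neither gene, 60 in Ctrl, *IL32* at 7-day was 7.52 on the log2 scale above Ctrl and *IL11* was 5.63 above Ctrl. Both values rest on few Ctrl counts, 5 UMIs for *IL32* and 2 for *IL11*. *IL6*, *LIF* and *CSF2* had no UMI in these 60 cells, so that their 7-day values of 2.84, 1.10 and 0.32 are set against 3 counts. They are no lower limits, since *CSF2* had 7 and *LIF* 12 UMIs in such cells at 7-day.

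For each member found in at least 20% of cells of a library, the genes most like it across the cells of the library where its share was highest are named with Pearson's r of log-normalized values, as a description over cells that share a library and depth. Among the genes most like *IL32* were *OCIAD2* (r = 0.52 over 569 cells at 7-day, and 0.47 after thinning), *FERMT1*, *ACTN1* and *C15orf48*. Among those most like *IL1A* at 7-day were *ITGAV* (r = 0.40, and 0.25 after thinning), *CXCL8*, *ITGA2* and *PTPRK*. The median r of *IL32* with the 11024 genes ranked was 0.01, and its 99th percentile was 0.29. At 7-day *CSF1* was most like the chemokine genes *CXCL1* (r = 0.34) and *CXCL8* (0.32), and *IL1B* was most like *CXCL8* and *CXCL1* (both 0.24). In Ctrl and at 3-day the r of *IL1B* was 0.19 and 0.10 with *CXCL8*, and 0.01 and 0.01 with *CXCL1*. The r of *CSF1* with *CXCL1* was 0.17 to 0.20 in the other libraries.

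*IL18* was most like *S100A10* (r = 0.31), *ANXA2*, *MYL12B* and *ARPC3*, with *LGALS3*, which encodes galectin-3, the fifth (r = 0.25, and 0.09 after thinning). *IL11* at 3-day was most like *HMGA1* (r = 0.36 over 705 cells), *RHOB*, *ODC1*, *PSMD2* and *PDAP1*. *LIF* at 7-day was most like *CSF2* (r = 0.24, and 0.10 after thinning), with *FAM111A*, *KLHL15*, *DPY19L1* and *GRAMD1A* next. The r of *LIF* with *CSF2* was 0.05 at 1-day and 0.01 at 3-day. For each gene named here, r was lower after thinning.

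**Figure D5:**
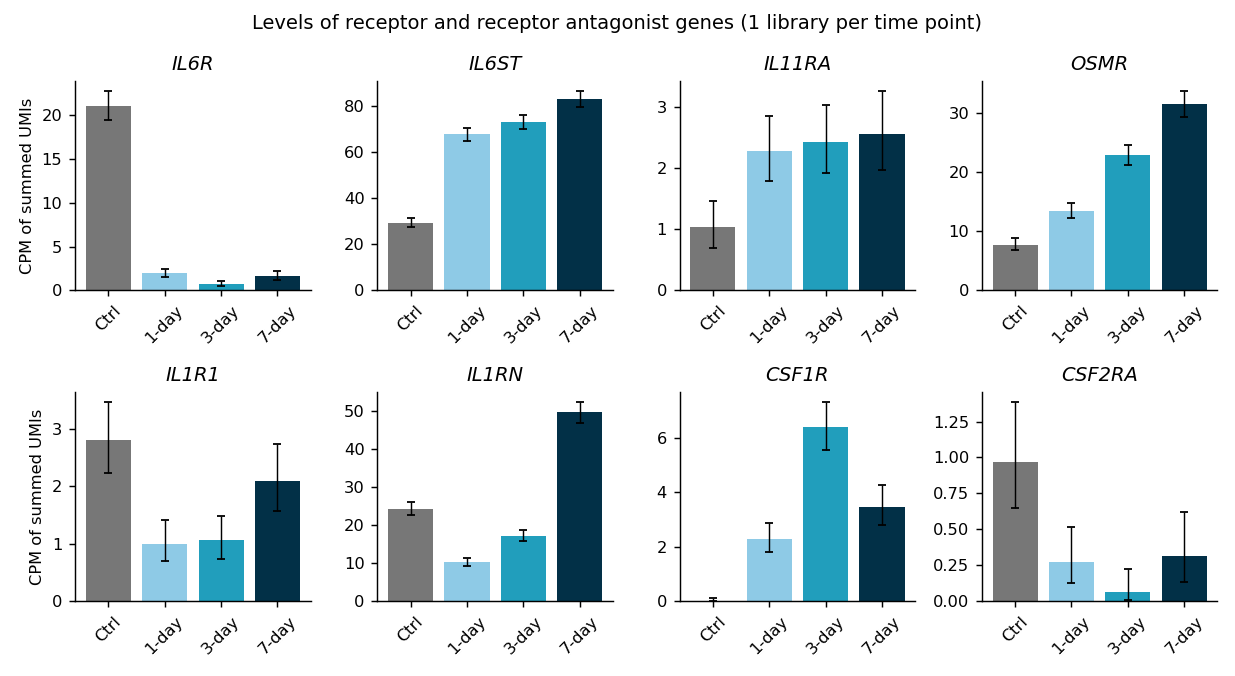
Level of 8 receptor and receptor antagonist genes in the 4 libraries, in CPM of summed UMIs on a linear axis from 0 with a separate scale for each gene; bars are single libraries and error bars are exact Poisson 95% intervals. *IL6R* was high in Ctrl (21.0 CPM) and low with TGF-β1, whereas *IL6ST*, *OSMR* and *CSF1R* were higher with TGF-β1.

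The receptors of the gp130 cytokines moved in opposite directions. *IL6R*, the IL-6 binding subunit, was at 21.0, 1.94, 0.716 and 1.62 CPM from Ctrl to 7-day (log2 ratio -3.44, -4.88 and -3.70). *IL6ST* was at 29.4, 67.9, 73.1 and 83.0 CPM (log2 ratio 1.21, 1.32 and 1.5). *IL11RA*, which binds IL-11, was at 1.03, 2.28, 2.43 and 2.56 CPM, and *LIFR* had at most 2 UMIs in any library. *OSMR*, which pairs with gp130 for oncostatin M, was at 7.73, 13.4, 22.9 and 31.4 CPM. *IL6R* was thus already low at 1-day, when *IL6* was as scarce as in Ctrl, and *IL11RA* and *IL6ST* were higher in the libraries in which *IL11* was high.

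Of the 12 genes listed for gp130 receptors and signalling, 10 could be tested and 4 were at least 2-fold higher at each time point (against 11.9%, 12.7% and 14.7% of all genes from 1-day to 7-day). *IL6ST*, *IL11RA* and *SOCS3*, the feedback inhibitor, were among the 4 each time, joined by *JAK1* at 1-day and by *OSMR* at 3-day and 7-day, and *IL6R* was the 1 lower gene each time, a share close to the 11.5% to 12.9% of all genes. *SOCS3* was at 6.10, 12.7, 16.4 and 20.1 CPM, and *STAT3* at 32.9, 49.1, 45.5 and 59.2 CPM. Of 7 other gp130 cytokine genes, 4 could be tested and 2 were at least 2-fold higher at each time point (against the same shares of all genes), none of them above 5 CPM, while *CLCF1*, above 5 CPM in each library, was at 28.2, 20.5, 19.1 and 25.5 CPM.

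Among the genes that receive, block and process IL-1 family cytokines, gains were most frequent at 7-day. Of 18 listed genes, 16 could be tested, of which 2 were at least 2-fold higher and 3 lower at 1-day, 4 higher and 1 lower at 3-day, and 8 higher and 0 lower at 7-day. Over all genes 11.9%, 12.7% and 14.7% were higher and 12.9%, 12.5% and 11.5% lower, so that the 1-day counts lie near those shares. At 7-day *TRAF6* (2.01-fold) and *IL1RN* (2.04-fold) lay just above the limit, and the counts of this list were not recomputed with other scaling. *IL1RN*, which encodes the IL-1 receptor antagonist, was at 24.4, 10.3, 17.2 and 49.7 CPM from Ctrl to 7-day, lowest and highest at the same time points as *IL1B* and *CSF1*. *IL1R1*, the signalling receptor, was at 2.80, 1.00, 1.06 and 2.09 CPM, and *IL1RAP*, its accessory chain, at 7.30, 7.80, 5.66 and 6.03 CPM.

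The decoy receptor *IL1R2* was at 5.67, 3.34, 4.79 and 7.41 CPM. For IL-18, the receptor chain *IL18R1* was under 1 CPM in each library, at 14, 6, 11 and 20 UMIs, and *IL18RAP* had no UMI. The inflammasome sensor *NLRP3* had 0, 3, 31 and 129 UMIs from Ctrl to 7-day, the last at 5.08 CPM. *NLRP1* was at 1.90, 10.4, 18.0 and 10.6 CPM, and *PYCARD*, the inflammasome adaptor, at 4.47, 6.19, 7.47 and 11 CPM. *CASP1*, which cleaves pro-IL-1β and pro-IL-18, had 2, 10, 16 and 51 UMIs. These 4 inflammasome genes were all at least 2-fold above Ctrl at 7-day, and only *NLRP1* of them was highest at 3-day. They are among the 8 of 16 tested genes of the list that were higher at 7-day, against 14.7% of all genes. *NLRP3* and *CASP1*, with 0 and 2 Ctrl UMIs, could be tested only through the treated libraries. *GSDMD* (1.52-fold) and *CASP4* (1.26-fold), of the same list, were under 2-fold at 7-day.

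Of the colony-stimulating factor receptors, *CSF1R* was the one with a clear gain. From Ctrl to 7-day it had 0, 75, 205 and 88 UMIs, or 2.28, 6.38 and 3.47 CPM in the treated libraries, and was found in 22.3% of 3-day cells. *CSF2RA* had 29, 9, 2 and 8 UMIs, and *CSF2RB* and *CSF3R* had none in any library, where 3 counts would be 0.0910 to 0.118 CPM. *IL34*, the other ligand of the *CSF1* receptor, had 2 to 9 UMIs. *CSF1* and its receptor were thus both detected, while the shared chain for GM-CSF and the receptor for G-CSF were not detectable at this depth.

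Most other interleukin genes were not expressed at a level that could be tested. Of 26 listed, 5 had at least 20 UMIs over the 4 libraries, and of these *IL15* was at 2.60, 11.2, 12.9 and 13.1 CPM and *IL23A* at 1.57, 1.40, 7.00 and 16.1 CPM. *IL15* was thus higher from the first day and *IL23A* from the third day. *IL7* was at 3.93, 7.10, 4.51 and 4.96 CPM. Of 7 other IL-1 family genes, 2 could be tested, and both, *IL36G* and *IL36RN*, were at least 2-fold higher at 7-day (against 14.7% of all genes) with 29 and 34 UMIs. *IL36G* had 0 UMIs in Ctrl and at 1-day and 4 at 3-day, so it could be tested only through its 7-day count. Its call at 7-day was thus fixed by the minimum of 20 UMIs.

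The factors known to act on these genes included several that were higher at 7-day. Of 16 listed NF-kB, C/EBP and AP-1 genes, all tested, 4 were at least 2-fold higher and 2 lower at 1-day, 5 higher and 2 lower at 3-day, and 8 higher and 2 lower at 7-day. The counts of lower genes lie near the 11.5% to 12.9% over all genes, and those of higher genes stand beside 11.9%, 12.7% and 14.7%. At 7-day *NFKB1* (2.01-fold), *NFKBIA* (2.02-fold) and *RELA* (2.05-fold) lay just above the limit, and the counts of this list were not recomputed with other scaling. The NF-kB subunit genes *NFKB2* (3.97, 10.7, 15.4 and 17.9 CPM) and *RELB* (17.3, 34.1, 51.2 and 64.7 CPM) were higher at each later time point. *TNFAIP3*, an NF-kB target and inhibitor, was at 1.87, 3.82, 14 and 38.7 CPM. *BIRC3*, another NF-kB target, was at 12.4, 2.15, 8.18 and 39.3 CPM, lowest at 1-day and highest at 7-day as *IL1B*, *CSF1* and *IL1RN* were.

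The AP-1 genes *JUN* (59.9, 236, 138 and 111 CPM) and *JUNB* (124, 396, 311 and 211 CPM) were highest at 1-day, while *FOS* was at 19.7, 10.6, 5.76 and 3.11 CPM. *CEBPD* was also lower with TGF-β1, at 33.5, 9.71, 11 and 15.5 CPM. In a list of 9 chemokine genes, 5 were at least 2-fold lower and 2 higher at 1-day, 1 was lower and 2 higher at 3-day, and 8 were higher and 0 lower at 7-day. Over all genes, 12.9% were lower and 11.9% higher at 1-day, and 12.5% lower and 12.7% higher at 3-day. At 7-day 14.7% were higher and 11.5% lower. The counts of 0, 1 and 2 of 9 chemokine genes lie near these shares. The lower ones at 1-day were *CXCL1*, *CXCL2*, *CXCL3*, *CXCL5* and *CXCL6*.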

How the data were processed

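Per the labels, 10x Genomics 3′ scRNA-seq libraries were processed by the submitters with Cell Ranger 2.0.1 on GRCh38. The authors deposited raw UMI counts for each gene in each cell. The last cell of each matrix was held only in part and was left out. Cells with more than 200 genes and at most 20% mitochondrial UMIs were retained, and UMIs were summed per library. The mitochondrial limit was set here. The members and lists were chosen with earlier results of these data known. Named genes are the members, their receptors, list genes of at least 5 CPM in a library and at least 2-fold from Ctrl, and the 5 genes most like each member by r. A few others were named after their values were seen. Some genes that met this rule are not reported here. With 1 library per time point no test was made. Intervals (exact Poisson, conditional binomial and Clopper-Pearson, 95%) cover counting error only. A count of 0 was replaced by 3 in ratios. Scrublet in scanpy 1.11.5 marked 40 of 3144 cells (1.27%) as doublets, which were retained. The interval of the ratio and the 2-fold call were tested on simulated Poisson counts, which lack the clustering of UMIs in cells. The other steps were not tested on simulated data. Alternatives were other mitochondrial limits, scaling, thinning, cell subsets and doublets left out, and leaving out shared barcodes was added after the data were seen.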

Additional observations from a re-analysis of the deposited data

Results flagged for a closer look

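*IL1B* and *CSF1* were lower than Ctrl at an early time point and higher at a late one. The log2 ratio of *IL1B* to Ctrl was -4.53 at 1-day, -1.32 at 3-day and 3.20 at 7-day, and that of *CSF1* was -1.04 at 1-day and 0.83 at 7-day. Each value compares 1 library with the same Ctrl library, and the difference between the time points was not tested.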

How the results depend on the processing

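The log2 ratios to Ctrl were recomputed under 11 alternatives, of which some gave no value for *CSF3* at 7-day and *CSF2* at 1-day. Counts of members were not recomputed in the parts by barcode order or without the top cells. Of 292 recomputed ratios, 238 stayed within the counting interval, 51 moved beyond it and 3 took the other sign. No ratio moved beyond its interval with a mitochondrial limit of 10%, no mitochondrial limit, doublets left out, median-of-ratios scaling, means over cells or shared barcodes left out. Thinning moved 3 (*IL1A* and *CSF2* at 3-day, *IL32* at 1-day), all with the direction kept. The 3 ratios that took the other sign came in cells with no *TOP2A* and no *MKI67* UMI, with 60 Ctrl cells and 3 counts in place of 0. They were those of *IL6* at 3-day (-0.79) and *CSF2* at 1-day (-1.60) and 3-day (-0.14). They set 7, 10 and 11 UMIs against none in Ctrl, so that no lower level was observed. In those cells the 7-day log2 ratios were 2.84 for *IL6*, 5.63 for *IL11*, 1.10 for *LIF* and 2.16 for *IL1B*. They were 1.83 for *IL18*, 7.52 for *IL32* and 0.32 for *CSF2*. The Ctrl counts in those cells were 2 UMIs for *IL11*, 5 for *IL32* and 6 for *IL1B*. Among those cells, 3 members were at least 2-fold above Ctrl at 1-day and 4 at 3-day, against 5 and 7 in all retained cells. The share of all genes was not computed in those cells. *IL6*, *LIF* and *CSF2* had 0 Ctrl UMIs there, replaced by 3 counts. Of 26 ratios recomputed in those cells, 4 stayed within the counting interval, 19 moved beyond it and 3 took the other sign. In the first part of the cells in barcode order the 7-day log2 ratios were 8.84 for *IL11*, 2.29 for *IL1A*, 6.34 for *IL32* and 0.69 for *CSF3*, and in the second part 6.71, 2.74, 7.03 and 0.94, with *CSF3* set against 3 counts. Without the 10 cells with most UMIs of the gene they were 8.82 for *IL11*, 5.88 for *LIF* (against 3 counts), 4.43 for *IL1B* and 7.76 for *IL32*. In Ctrl, *IL11* had 16 UMIs in 16 cells, and the 10 cells with the most held 55.9% of the *IL32* and 66.7% of the *IL1B* UMIs. Leaving out 10 cells thus removed most of these Ctrl counts. Apart from this and the Ctrl counts of 0, the cause was not tested. With median-of-ratios scaling, 1 member was at least 2-fold below Ctrl at 1-day, since *CSF1* no longer passed. No paired analysis was possible because there was a single library at each time point and the labels give no replicate numbers.

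Each condition is 1 library, so that no spread between cultures is known. The Ctrl counts of *IL6*, *CSF2*, *LIF*, *IL11* and *CSF3* lie between 0 and 16 UMIs. Their ratios to Ctrl rest on these few counts, so that the size of each is uncertain. Only the first part of each library in barcode order was analysed.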
